A study of Caenorhabditis elegans with 8 samples.

Results

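The pals-26 to pals-33 genes are 8 consecutively numbered members of the pals family of Caenorhabditis elegans. They were chosen by their names, without a threshold on any measured value, and all 8 were present among the 14541 genes of the deposited expression table, which also held 27 other pals genes. The table compares 4 RNA-seq libraries from wild-type N2 animals with 4 libraries from pals-17(*) mutants, which carry the syb3980 allele with consecutive premature stop codons in pals-17. Both strains were grown from synchronized L1 larvae on OP-50 bacteria at 20 °C, for 48 h in the wild type and for 72 h in the mutants, which grow slowly, and RNA was taken from whole animals. L4 larvae were aimed at in both strains, but development of the mutants is not synchronous and their samples mix stages, so that genotype, growth time and stage cannot be told apart in these libraries. The labels do not state whether replicates came from separate cultures, and the p-values measure only the spread between these samples.

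PALS proteins are grouped by a region of weak similarity to the product of the human gene ALS2CR12, and C. elegans has many more of them than mammals do. Many of its genes are induced as part of the intracellular pathogen response (IPR), a transcriptional program that is switched on by infection with the Orsay virus or with microsporidia of the intestine such as Nematocida parisii. Other pals genes regulate this program: pals-22 and pals-17 hold it in check, whereas pals-25, pals-20 and pals-16 act in the opposite direction. No role of its own is assigned here to any of the 8 genes, which are described by their place in the genome and by whether the study counts them as IPR genes. The study's list of 80 IPR genes, defined by earlier experiments, holds 7 of the 8, and pals-31 is the exception.

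The 8 genes lie at 5 places on 3 chromosomes in the WBcel235 annotation, and all are protein-coding. On chromosome III, pals-26 (WBGene00007131, 4375154 to 4378907), pals-27 (WBGene00007132, 4381643 to 4384166) and pals-28 (WBGene00007134, 4384787 to 4387757) follow each other on the plus strand. Gaps of 2735 bases and 620 bases separate them. On chromosome IV, pals-29 (WBGene00012091, 14539685 to 14542617) and pals-30 (WBGene00013294, 14549667 to 14551970) lie on the minus strand, 7049 bases apart. The others are single genes on the plus strand of chromosome V, namely pals-31 (WBGene00018614, 636581 to 637518), pals-32 (WBGene00016281, 2896610 to 2898527) and pals-33 (WBGene00021081, 3673380 to 3676632). Their annotated exons cover between 893 bases in pals-31 and 2719 bases in pals-26.

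Reads counted on the genes of the table numbered 17871320 to 23378799 per library, and reads outside these genes are not known. A single read was worth 0.0522 to 0.0681 CPM (reads corrected for library depth) in wild-type and 0.0362 to 0.0446 CPM in mutant libraries. As a check of the labels, pals-17 itself measured 16.03 ± 2.22 CPM (SD, n = 4) in N2 and 4.37 ± 0.224 CPM in pals-17(*). Stage markers differed between the strains as well. All 10 genes of a list of oocyte and early embryo markers were upregulated, with a summed level of 23.8 to 125 CPM in wild-type and 2792 to 3853 CPM in mutant libraries. The 5 sperm markers were upregulated too, from 11.1 to 40.5 CPM in sum to 366 to 437 CPM, and so were 4 of 6 germline markers (261 to 533 CPM and 1513 to 1822 CPM in sum). All 7 markers of larval molting cuticle were downregulated, from 5625 to 6638 CPM in sum to 877 to 1102 CPM. Of 2 adult cuticle markers, 1 was upregulated (log2 fold change 5.92) and 1, which is also on the larval list, was downregulated (-2.36). Of 9 intestinal markers, 5 were downregulated and none upregulated, and their sum was 21626 to 24295 CPM in wild-type and 5129 to 6176 CPM in mutant libraries. No marker was at 0 in all libraries, and the part of these differences in the results on the pals genes was not tested. In bulk RNA from whole animals, a change in the number of cells that express a gene and a change in RNA per cell cannot be told apart.

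All 8 genes were upregulated in pals-17(*) mutants, which required a log2 fold change over 2 at an adjusted p-value below 0.05. Of all genes tested, 20.6% met this criterion, and 7.48% met its counterpart for lower levels in mutants, which no gene of the set did. In all 8, every mutant library lay above every wild-type library, which held for 41.2% of all genes. In pals-27, pals-28, pals-29, pals-31 and pals-33, every wild-type library was under 1 CPM (at most 0.817 CPM, in pals-33). With the authors' filter at 1 CPM, these genes could enter the table only through their mutant levels. A higher level in mutants was thus largely built in for them, and the shares of all genes say little there. Their adjusted p-values below are therefore no independent support for a higher level in mutants. The filter also bears on comparing their fold changes with those of pals-26, pals-30 and pals-32. The mutant libraries of the genes under 1 CPM in the wild type held at least 11.6 CPM, far above that filter. The log2 fold changes ran from 3.89 in pals-30 to 9.33 in pals-29, with a median of 6.23, while the median over all genes was 0.0041. Summed over the 8 genes, the wild-type level was 6.54 ± 0.772 CPM (SD, n = 4) and the mutant level 366 ± 14.6 CPM. The wild-type sum rests on 423 reads in the 4 libraries together, against 37685 reads in mutants.

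**Figure D1:**
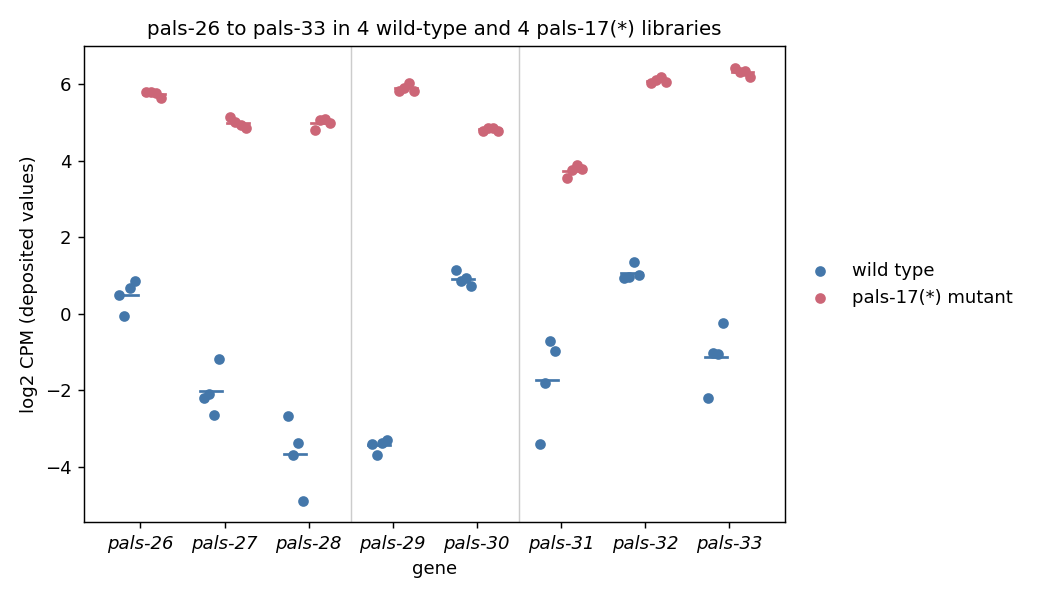
Levels of the 8 genes in each library, as deposited log2 CPM on the vertical axis, with 4 wild-type libraries in blue, 4 pals-17(*) libraries in red, short lines for the mean, and vertical lines between chromosomes III, IV and V. The strains do not overlap for any gene, and the wild-type points spread over a wider range of levels, from gene to gene and within a gene, than the mutant points.

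The genes of chromosome III were close to silent or weakly expressed in the wild type. In wild-type replicates 1 to 4, pals-26 measured 1.38, 0.940, 1.55 and 1.77 CPM, and in the mutant replicates 55.4, 54.9, 53.97 and 49.5 CPM. Its strains were well apart, and its log2 fold change was 5.25 (SE 0.175, adjusted p = 3.97e-09). A pseudogene on the same strand, B0284.5 (WBGene00045188), overlaps pals-26 over 170 bases and was upregulated too, with mean levels of 0.555 and 6.09 CPM and a log2 fold change of 3.46, so that reads in the shared bases are of uncertain origin.

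In pals-27 the wild-type libraries held 0.188, 0.209, 0.129 and 0.409 CPM, which is 2 to 6 reads each. The mutant libraries held 35.3, 32.3, 30.4 and 28.7 CPM. The log2 fold change of 7.003 (SE 0.274, adjusted p = 9.97e-09) was larger than that of its upstream neighbor.

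pals-28 lay at the limit of detection in wild-type animals, with 2, 1, 1 and 0 reads, or 0.125, 0.0522, 0.0646 and 0 CPM. In mutants it reached 27.9, 33.2, 34.2 and 31.5 CPM, the same mean level as pals-27 (31.7 ± 2.78 and 31.7 ± 2.83 CPM, SD, n = 4). Its log2 fold change was 8.63 (SE 0.395, adjusted p = 2.6e-08). Because the wild-type value rests on 4 reads in all, the ratio of the pooled levels, 520, has a 95% counting interval of 203 to 1910.

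Along this trio the fold change thus increased from pals-26 through pals-27 to pals-28. Within-library ratios, which do not depend on a scaling factor per library, were compared between strains for all 28 pairs of the 8 genes by an exact 2-sided permutation test over 70 relabellings. The smallest p-value this design can give is 0.0286, which became 0.0381 after Benjamini-Hochberg adjustment over the 28 pairs. All pairs of the trio reached it. The log2 fold change of pals-27 exceeded that of pals-26 by 1.75 (SE 0.305), and that of pals-28 exceeded that of pals-27 by 1.63 (SE 0.739). With 1 CPM added to every value before the logarithm, the log2 fold changes were 4.51, 4.73 and 4.94 in the same order, and none of the 3 differences passed the test (adjusted p = 0.139 for pals-27 against pals-26, 0.288 for pals-28 against pals-27 and 0.0727 for pals-28 against pals-26). On the wild-type side the trio rests on 90, 15 and 4 reads in all.

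The pair on chromosome IV held the highest and the lowest fitted change of the set. pals-29 had exactly 1 read in each of the 4 wild-type libraries, or 0.0522 to 0.0681 CPM, and 56.6, 59.6, 65.3 and 56.5 CPM in mutant replicates 1 to 4. Its fitted log2 fold change of 9.33 (SE 0.148, adjusted p = 1.47e-10) was the highest of the set and ranked 9 among all genes tested. On this scale it did not differ from that of pals-28 beyond the spread. The SE was computed on equal wild-type reads, and counting error alone gave a wider margin, with a pooled ratio of 973 and a 95% interval of 380 to 3573.

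Its neighbor pals-30 had the lowest. Wild-type libraries held 2.19, 1.78, 1.87 and 1.63 CPM of pals-30, from 24 to 35 reads each, and mutant libraries held 27.2, 28.7, 28.98 and 27.4 CPM. The strains did not overlap, and the log2 fold change was 3.89 (SE 0.111, adjusted p = 1.77e-09). The difference between the log2 fold changes of pals-29 and pals-30 was 5.44 (SE 0.127, exact permutation test, adjusted p = 0.0381), the largest of the 28 pairs. With 1 CPM added it was 2.49 and still passed. Within wild-type libraries pals-30 was 4.35 above pals-29 on the log2 CPM scale, whereas within mutant libraries pals-29 was 1.08 above pals-30, so that the order of the pair turned around. Annotated piRNA genes of 21 bases, 7 in pals-29 and 2 in pals-30, overlap these genes and were not among the genes tested.

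The genes of chromosome V do not neighbor each other, and pals-33 changed more than pals-31 and pals-32. Between pals-31 and pals-32 the fitted changes did not differ beyond the spread. With 1 CPM added, pals-31 changed less than pals-32 (difference -1.06, exact permutation test, adjusted p = 0.0381). pals-31, the gene outside the IPR list, had 0.0627, 0.261, 0.581 and 0.477 CPM in wild-type replicates 1 to 4, and 11.6, 13.4, 14.8 and 13.8 CPM in mutants. Its wild-type values varied more than those of any other gene of the set on the log2 scale (SD 1.22), with a single read in replicate 1 and 9 reads in replicate 3, yet all lay far below the mutant values. The log2 fold change of pals-31 was 5.46 (SE 0.504, adjusted p = 3.28e-06), and it was 4.90 without wild-type replicate 1 and 5.80 without wild-type replicate 3.

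pals-32 was the gene with the most reads in the wild type, at 1.88, 1.93, 2.52 and 1.98 CPM. Mutant libraries held 65.0, 68.9, 73.0 and 65.8 CPM, and the log2 fold change was 5.02 (SE 0.109, adjusted p = 4.47e-10). It overlaps str-46, a gene on the opposite strand that is named as a chemoreceptor, over 231 bases. str-46 is not in the table, and the strand setting of the counting is not given in the sources used here.

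pals-33 reached the highest mutant level of the set, 86.1, 79.4, 80.5 and 73.0 CPM, from 0.188, 0.470, 0.452 and 0.817 CPM in the wild type. The strains were apart by a wide margin although wild-type replicate 4 had more than replicate 1. The log2 fold change was 7.43 (SE 0.334, adjusted p = 2.29e-08), and the pooled ratio of 167 had a 95% counting interval of 118 to 247.

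**Figure D2:**
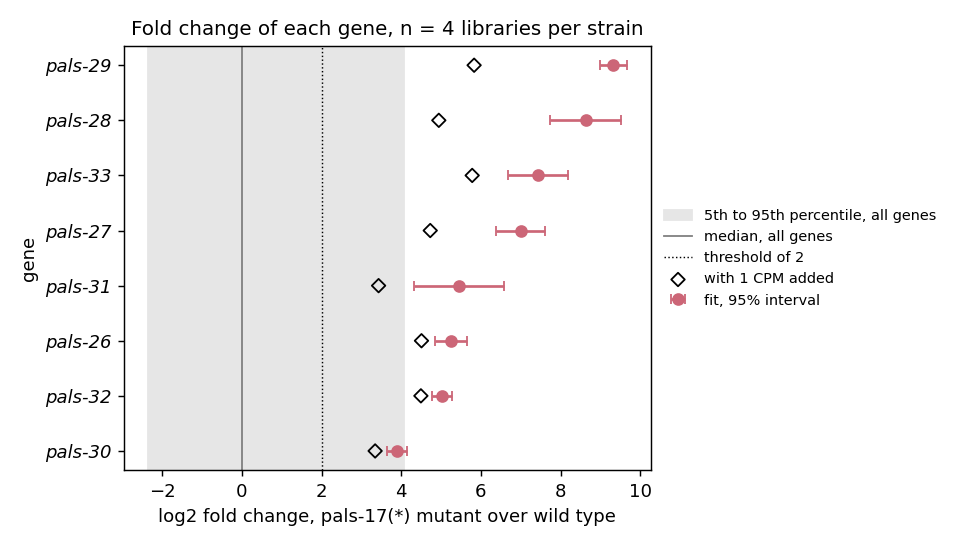
Log2 fold change of each gene, mutant over wild type, with its 95% confidence interval from limma (red), the value with 1 CPM added to all values (open diamonds), the 5th to 95th percentile of all genes (gray band, -2.36 to 4.08), their median (gray line) and the threshold of 2 (dotted line). All 8 genes exceed the threshold on both scales, and adding 1 CPM draws in the genes with few wild-type reads most, such as pals-29 from 9.33 to 5.83 and pals-28 from 8.63 to 4.94.

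Of the 28 pairs, 21 differed in their change between strains. pals-30 changed less than each of the other 7 genes, and pals-29 changed more than each of the others except pals-28, from which it did not differ beyond the spread (difference 0.70, SE 0.491, exact permutation test, adjusted p = 0.174). The other pairs that did not pass were pals-28 and pals-33 (1.20, adjusted p = 0.256), pals-33 and pals-27 (0.43, adjusted p = 0.256), pals-27 and pals-31 (1.54, adjusted p = 0.109), pals-31 and pals-26 (0.21, adjusted p = 1.0), pals-31 and pals-32 (0.44, adjusted p = 0.652), and pals-26 and pals-32 (0.22, adjusted p = 0.338). Under 6 ways of adding an offset or scaling the libraries, 15 pairs passed every time. Among them were 5 with pals-29 as the gene of the larger change and 6 with pals-30 as that of the smaller change. The 6 ways include the main one. Scaling to library totals and median centring repeat it by construction, since within-library ratios do not depend on a factor per library. The order of 3 pairs, pals-28 with pals-33 and pals-31 with pals-26 or pals-32, turned around under at least 1 of the 6 ways. The other 6 calls were lost with 1 CPM added, namely the 3 pairs of chromosome III, pals-27 over pals-32 (difference 0.23), pals-29 over pals-33, which came down from 1.89 to 0.05, and pals-31 over pals-30, which came down from 1.57 to 0.09 (adjusted p = 0.8). After quantile normalization, pals-31 over pals-30 (0.95) and pals-28 over pals-27 (1.27) were not called either (adjusted p = 0.0696 for both). Other pairs passed only under an alternative. With 1 CPM added, the turned differences of pals-28 to pals-33 (-0.84), pals-31 to pals-26 (-1.08) and pals-31 to pals-32 (-1.06) passed (adjusted p = 0.0381 each). pals-29 over pals-28 passed with 0.1 CPM added (0.84, adjusted p = 0.0333) and 1 CPM added (0.89, adjusted p = 0.0381). pals-33 over pals-27 and pals-27 over pals-31 each passed under 3 of the 6 ways. These were 0.1 CPM added (adjusted p = 0.0333), 1 CPM added and quantile normalization (adjusted p = 0.0381 for both). The ways without a call were the main one and the scalings that repeat it.

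**Figure D3:**
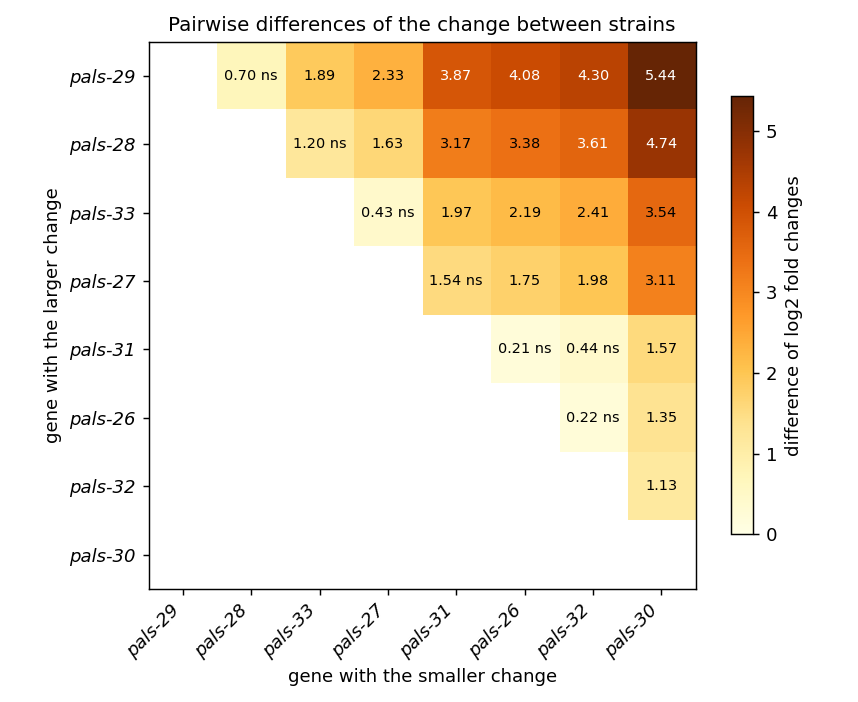
Differences between the log2 fold changes of each pair of genes, the gene with the larger change in rows and that with the smaller change in columns, both ordered by fold change. Darker cells mark larger differences, and "ns" marks the 7 pairs that did not pass the exact permutation test. The last column shows that pals-30 changed less than every other gene, by 1.13 to 5.44, where the difference from pals-31 (1.57) was not called with 1 CPM added or after quantile normalization.

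The make-up of the reads on the 8 genes accordingly differed between strains, as shares of reads that are not corrected for gene length. pals-30 took 29.01% ± 5.84 (SD, n = 4) of them in the wild type and 7.68% ± 0.205 in mutants, and pals-32 took 31.8% ± 3.26 and 18.6% ± 0.606. Conversely, pals-29 went from 0.948% ± 0.0602 to 16.3% ± 0.673 and pals-33 from 7.26% ± 3.50 to 21.8% ± 1.19. For none of these 4 genes did the strains overlap. Summed by chromosome, the shares stayed closer. The genes of chromosome V held 44.2% ± 6.24 of the reads in the wild type and 44.1% ± 0.37 in mutants. Those of chromosome III held 25.9% ± 4.12 and 31.9% ± 0.677, and those of chromosome IV 29.95% ± 5.88 and 23.9% ± 0.755. The strains did not overlap for chromosome III (21.1% to 30.5% and 31.1% to 32.5%), but they did for chromosomes IV and V.

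**Figure D4:**
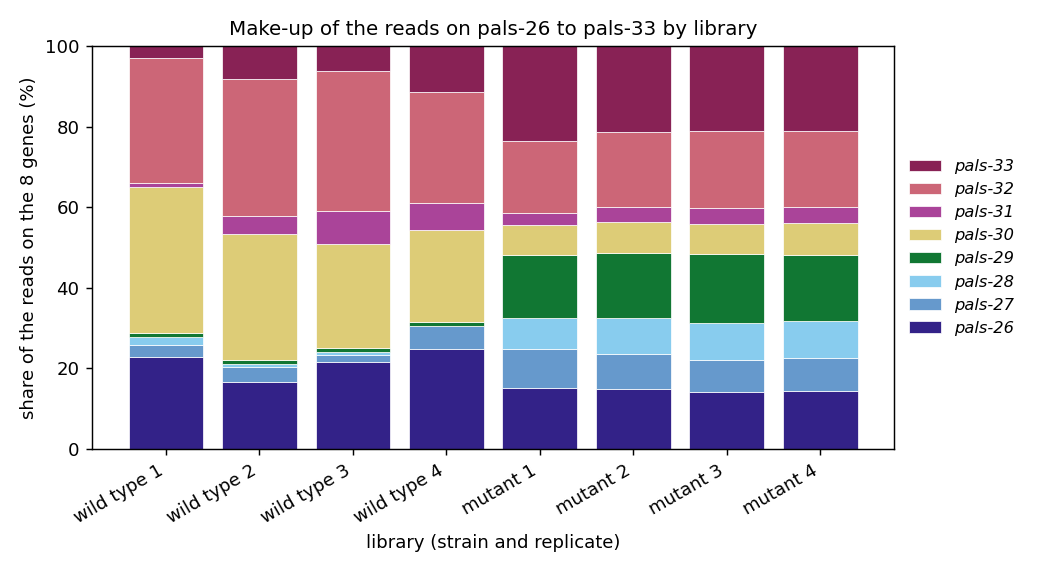
Share of the reads on the 8 genes that each gene took in each of the 8 libraries, in percent, stacked from pals-26 at the bottom to pals-33 at the top. pals-30 (yellow) and pals-32 (rose) fill most of the wild-type bars together with pals-26, while pals-29 (green), at most 1.03% in a wild-type library, takes at least 15.5% in each mutant library.

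Per kb of exon, the 8 genes were spread over a wider range in the wild type than in mutants. In wild-type animals the mean level ran from 1.62 ± 0.233 CPM per kb (SD, n = 4) for pals-32 and 1.31 ± 0.166 for pals-30 down to 0.0479 ± 0.0408 for pals-28 and 0.0459 ± 0.00506 for pals-29, a 35.4-fold span. Only the step from pals-30 to the next gene, pals-26 at 0.519 ± 0.129, separated the libraries of neighboring genes in this order. In mutants the span was 4.06-fold. pals-33 (60.8 ± 4.08 CPM per kb) and pals-32 (53.2 ± 2.84) were highest and overlapped each other. pals-29 (44.1 ± 3.05) stood apart from the genes above and below it. pals-28 (25.1 ± 2.20), pals-27 (20.8 ± 1.86), pals-26 (19.7 ± 0.989) and pals-30 (19.6 ± 0.638) followed, each overlapping the next, and pals-31 (15.0 ± 1.496) was lowest and apart from pals-30. pals-29 thus moved from the lowest mean level in the wild type to the third place in mutants.

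Replicates of the mutants were close to each other, with coefficients of variation of 3.25% to 9.98%, against 11.04% to 85.02% in the wild type. The wild-type values rest on 4 to 135 reads per gene over the 4 libraries and the mutant values on 1387 to 8190 reads, so that counting error weighs far more in the wild type. The mutant libraries did not rank alike for all genes, since replicate 3 was highest for 5 of them and replicate 1 for pals-26, pals-27 and pals-33. Replicate 1 was lowest for 4 genes, among them pals-28 and pals-30.

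The other pals genes give a frame for these values. Of the 12 measured pals genes that the study treated as regulators or as genes with little induction, 3 were upregulated and none downregulated, and their log2 fold changes had a median of 0.95. These were pals-39 (6.18), pals-1 (4.17) and pals-34 (2.25). All 15 remaining pals genes were upregulated, with a median of 7.61 and a range of 5.05 to 11.71. The study counts pals-31 among the genes with little induction by intracellular infection, and its value of 5.46 lay below that of pals-39 and above those of the other 11 measured genes of that group. Values of pals-26, pals-27, pals-28, pals-29, pals-31 and pals-33 lay within that range, and those of pals-32 (5.02) and pals-30 below it. In the IPR list without the 7 genes described here, 63 of 70 measured genes were upregulated and none downregulated. Their median was 6.45, close to the median of 6.23 for the 8 genes. Median wild-type levels were 0.247 CPM in the 15 remaining pals genes and 0.653 CPM in that list. The authors' filter at 1 CPM therefore bears on many of these genes as well.

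None of the 8 measured regulators of the IPR was called in either direction by the threshold of 2 on the log2 scale. pals-17 had a log2 fold change of -1.86 (SE 0.114, adjusted p = 1.72e-07) and pals-16 of -1.03 (adjusted p = 3.21e-05). pals-20, near 0.388 CPM in the wild type, had 1.53 (adjusted p = 0.000719), while pals-22 (0.34, adjusted p = 0.0213) and pals-25 (0.37, adjusted p = 0.0664) moved little. Per the study, another gene lies wholly over pals-20, so that reads on pals-20 are of uncertain origin. zip-1, a bZIP transcription factor that acts in the IPR, had 0.51 (adjusted p = 0.00013), drh-1, a RIG-I-like receptor of viral RNA, had 0.27 (adjusted p = 0.00259) and sta-1, a STAT-like factor, had -0.81 (adjusted p = 5.01e-06). The synaptobrevin gene snb-1, the qRT-PCR reference of the study, did not pass (-0.06, adjusted p = 0.324).

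Of the 12 distinct nearest genes on either side that do not overlap the 8 genes, 3 were upregulated, a share of 25% beside 20.6% of all genes, and none was downregulated. Their median log2 fold change was -0.17. The overlapping B0284.5, described above, was upregulated and is not counted among them. B0284.3, which lies between pals-26 and pals-27 on the opposite strand, had a log2 fold change of 1.72 (adjusted p = 1.74e-06), from 2.30 to 7.64 CPM, which stayed below the threshold of 2. T27E7.9, between pals-29 and pals-30 and only 258 bases from pals-30, was upregulated (2.56, adjusted p = 1.75e-05) but stayed at 1.55 ± 0.192 CPM in mutants. T27E7.1, 18685 bases from pals-29 on the other side, was upregulated as well (3.68, adjusted p = 3.71e-06).

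Y39H10B.3 was the neighbor with the largest change. It lies 1140 bases upstream of pals-33 on the same strand and went from 0.245 ± 0.0845 CPM (SD, n = 4) in the wild type to 15.0 ± 2.03 CPM in mutants, a log2 fold change of 5.82 (SE 0.258, adjusted p = 2.16e-08). By contrast, W08A12.3 on the other side of pals-33 had -1.09 (adjusted p = 1.71e-05). Beside pals-32, C31B8.7 fell by 1.72 (adjusted p = 5.33e-07), a change below the threshold, and the intermediate filament gene ifc-1 had -0.64. Beside pals-31, F48G7.10 had 0.99 and the nuclear hormone receptor gene nhr-190 had -0.62. The remaining neighbors were ckb-2, a choline kinase gene upstream of pals-26 (-0.38), R07E5.4 downstream of pals-28 (0.04, adjusted p = 0.867) and Y57G11B.2 upstream of pals-30 (-1.07). Within 25 kb of the 8 genes, a window chosen after the values were seen, 9 of 36 other genes were upregulated, a share of 25%. The 36 genes had a median of 0.11, and none of the 9 is on the IPR list. Unlike the count of nearest genes, this one includes B0284.5, which overlaps pals-26. The 9 genes were spread unevenly. Around pals-29 and pals-30, 5 of 6 other genes were upregulated, with T27E7.1 and T27E7.9 joined by Y57G11B.5 (7.64), Y57G11A.2 (4.35) and Y57G11B.3 (3.07), which were named after their values were seen. Around the trio of chromosome III it was 3 of 13 and around pals-33 it was 1 of 6, while around pals-31 and pals-32 none of 11 was upregulated.

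**Figure D5:**
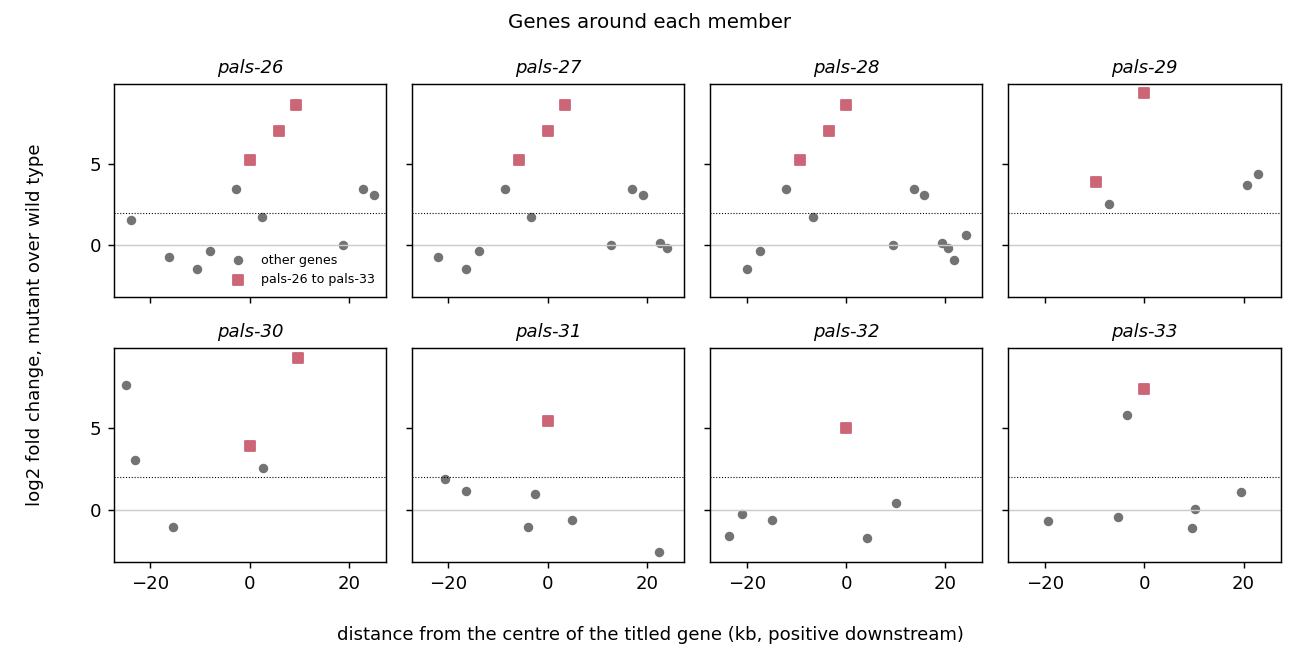
Log2 fold change (vertical axis) of the genes within 25 kb of each of the 8 genes, by distance in kb between gene centers along the transcribed strand of the gene named in the panel. Red squares are pals-26 to pals-33, gray points other genes, and the dotted line the threshold of 2. All 11 gray points around pals-31 and pals-32 lie below the threshold, whereas 5 of 6 around pals-29 and pals-30 lie above it, up to 7.64, and Y39H10B.3 (5.82) lies just upstream of pals-33.

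The genes whose profile over the 8 libraries was nearest to the mean profile of the 8 genes were T07H8.11, pals-37, F15H10.9, F56A6.5 and pals-38, at distances of 0.358, 0.408, 0.505, 0.514 and 0.533 log2 units (Euclidean, each gene centered on its own mean). The 8 genes themselves lay between 1.26 (pals-27) and 4.01 (pals-29) from that mean. T07H8.11 went from 1.61 ± 0.401 CPM to 156 ± 8.19 CPM (SD, n = 4), pals-37 from 1.03 ± 0.0302 to 102 ± 1.36 CPM and pals-38 from 0.486 ± 0.0836 to 39.8 ± 2.42 CPM. F15H10.9 and F56A6.5 had no read in any wild-type library and reached 3.35 ± 0.208 and 2.40 ± 0.292 CPM in mutants. A profile over 2 strains mostly reflects the size of the fold change, so that likeness here places these genes near the middle of the range spanned by the 8 genes.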

How the data were processed

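RNA from whole animals was made into paired-end libraries with the TruSeq Stranded mRNA kit, 4 per strain. Per the labels and the methods, the authors mapped reads to the WS235 genome with Rsubread, counted them with featureCounts, removed genes of low expression and ran limma-voom. The deposited values are log2 CPM, in which 0.5 was added to each read number before division by a scaled library size. The scaling method, the annotation and the strand setting of the counting are not given in the sources used here. The steps between low values gave back the reads, whole within 0.01 for 100% of the values, and the scaled library size, which was 0.793 to 0.822 of the total in the wild type and 1.20 to 1.26 in mutants. CPM in the text are recovered reads over that size. An entry without a gene name (0.00417% of reads) was left out.

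Strains were compared with limma 3.58.1 in R 4.3.3 on the log2 values of all 14541 genes, with an intensity trend, equal weights, 2-sided tests and Benjamini-Hochberg adjustment. Upregulated and downregulated refer to log2 fold changes over 2 or under -2 at an adjusted p-value below 0.05, and 7.48% of all genes were downregulated. The fit was also run on simulated reads in which few genes changed, as many up as down, and none with few reads. That setting differs from these data, so the run does not bear on genes with few wild-type reads. Pairs of genes were compared by exact permutation tests (scipy 1.17.1). Intervals of pooled ratios are 95% intervals for counting error only. Exon lengths and positions came from Ensembl release 115 (WBcel235). IPR genes were read from the gene lists of the study. The text names the 8 genes, the nearest tested gene on each side and overlapping genes, the 5 genes of nearest profile, the IPR regulators, pals-17 and snb-1, and B0284.5 as an overlapping gene. The 3 upregulated genes among the little-induced pals genes were named after their values were seen. The 8 genes were selected by name, but that choice and the lists were made with earlier results of these data known. Alternatives were voom weights, other prior variances, the replicate number as a term, other offsets, a filter, other scalings and thresholds, and each library left out. Promoter motifs and protein identity were planned and not analysed here, and near-identical copies that share reads were therefore not searched for.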

Additional observations from a re-analysis of the deposited data

How the results depend on the processing

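All 8 genes remained upregulated under each of the 20 alternatives, including voom weights, other prior variances, other thresholds, a filter on low values, other scalings and each library left out. Other prior variances, the filter and a replicate block leave the fitted fold changes unchanged and bear only on the adjusted p-values. A lower threshold on the fold change could not lose a gene. Across the 144 fits of a single gene under an alternative, the largest adjusted p (limma) was 2.58e-05. The median log2 fold change of the 8 genes, 6.23, was 4.62 with 1 CPM added and 5.395 after quantile normalization, and 6.10 to 6.50 with a library left out. Under the other alternatives it was 5.91 to 6.83. The replicate number as a block gave 8 upregulated genes. This block cannot move the median of 6.23, since each number holds 1 library per strain. Deviations of same-numbered libraries correlated by -0.0167 to 0.0731, so the numbers were not taken to pair samples. From 21 to 24 of the 28 pairs passed under the 5 alternatives run for them, and 3 to 4 of 7 neighbors in the order of mutant levels were apart, where pals-26, pals-27 and pals-30 changed places. Neither was run with a library left out, and for the pairs, library totals and median centring repeat the main result by construction. Over all genes, 2995 were upregulated, 1821 with 1 CPM added and 1922 after quantile normalization. Scaling to library totals moved the median of all genes to 0.60, median centring to -0.27 and quantile normalization to -0.12.

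Depth limits the wild-type side: 5 of the 8 genes had a mean under 1 CPM there, and pals-28 and pals-29 rest on 4 reads each, so that the size of their change depends on the offset.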
